A study of Mus musculus with 20 samples.

Results

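A set of 9 genes that mark microglia in their resting, or homeostatic, state was followed across the hippocampus of aged humanized APOE mice: P2ry12, P2ry13, Gpr34, Csf1r, Cx3cr1, Tmem119, Siglech, Fcrls and Sall1. They were taken by name from the table of counts per gene, and all 9 were found among its 33119 genes and passed the filter on low counts, with at least 352 counts in every mouse. The table covered 20 mice of 16 months on a C57BL/6 background, with 4 groups of 5 mice formed by genotype (hAPOE3 or hAPOE4) and sex. All of the mice were homozygous targeted replacement animals, in which human APOE3 or human APOE4 takes the place of mouse Apoe. No group carried mouse Apoe, so each comparison of genotypes sets hAPOE4 against hAPOE3 and not against wild type. RNA came from the whole hippocampus of perfused mice, without sorting, and was enriched for polyA before sequencing. The comparisons ask whether the microglial genes differ with APOE genotype, with sex, or with both together.

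Microglia are the resident macrophages of the brain, and they depend on signaling through the receptor encoded by Csf1r for survival. In the undisturbed brain they carry a set of surface receptors that sample nucleotides, chemokines and lipids, and the transcription factor Sall1 maintains this identity. When microglia respond to amyloid or injury, many of these genes are typically lowered while genes such as Clec7a and Cst7 are raised. In whole tissue a lower level of such a gene can come from fewer microglia or from less RNA per cell, and these cannot be told apart in bulk samples.

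Between 35778879 and 52520279 counts were assigned per mouse, and the group medians lay between 40388894 (hAPOE3 females) and 45217371 (hAPOE4 females). Some libraries stood apart in genes of other cells. In 4 hAPOE4 males (S175 to S178) genes of the oocyte had scores of 2.23 to 3.30, against -0.93 to -0.32 in the other 16 mice. A score averages the log2 CPM (counts scaled to the size of the library) of a list, with each gene centered on its mean over the mice. In 5 hAPOE3 mice (S147, S148, S156, S157 and S158) nuclear genes of oxidative phosphorylation scored 0.283 to 0.434, against -0.325 to 0.0543 in the other 15. Oligodendrocyte genes were high in S158 and S176, with scores of 0.69 to 0.95 against -0.40 to 0.23 in the other 18. Markers of choroid plexus, the tissue next to the hippocampus that makes cerebrospinal fluid, summed to between 273 and 9502 CPM. The part of these differences in the results was not tested.

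P2ry12 and P2ry13 are neighbors on chromosome 3 (GRCm38 chr3:59216272-59262871 and chr3:59207892-59210882, both on the minus strand). Both are inside Med12l, which is read from the opposite strand, and exons of P2ry12 share 9 bases with exons of Med12l. Fcrls is on the same chromosome (chr3:87250758-87263738). Tmem119 is on chromosome 5 (chr5:113793729-113800516), Siglech on chromosome 7 (chr7:55768178-55778925), Sall1 on chromosome 8 (chr8:89027235-89044162) and Cx3cr1 on chromosome 9 (chr9:119901616-120069879). Gpr34 is on the X chromosome (chrX:13632089-13640858), inside the gene Cask, and its exons share 0 bases with those of Cask.

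The promoters of P2ry12 and P2ry13 are shown because these adjacent genes for nucleotide receptors varied together across the mice. Each line holds the 250 bases before the start of transcription, from RefSeq (GRCm38.p6, chr3:59262986-59263235 for P2ry12 and chr3:59210883-59211132 for P2ry13), read on the minus strand. Capitals mark the letters AGGAAG or their complement, a purine-rich run found in sites of ETS factors such as PU.1, the factor of the macrophage lineage.
P2ry12 promoter: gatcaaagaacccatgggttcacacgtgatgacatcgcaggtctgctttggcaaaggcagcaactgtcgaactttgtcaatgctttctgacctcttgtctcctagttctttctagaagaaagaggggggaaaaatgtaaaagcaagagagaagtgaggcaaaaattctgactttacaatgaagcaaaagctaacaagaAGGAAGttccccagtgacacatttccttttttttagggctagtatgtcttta
P2ry13 promoter: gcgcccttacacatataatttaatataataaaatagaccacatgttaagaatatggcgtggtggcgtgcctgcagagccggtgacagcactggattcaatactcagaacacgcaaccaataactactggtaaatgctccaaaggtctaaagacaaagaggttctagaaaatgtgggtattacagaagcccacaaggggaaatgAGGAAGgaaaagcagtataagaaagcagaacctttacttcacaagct
The run begins 52 bases before the start in P2ry12 and 47 bases before it in P2ry13. The search covered 8 promoters for 6 of the genes, 3 of them for Sall1. Csf1r, Gpr34 and Tmem119 were not among them. Csf1r was left out by its chromosome, which the share over all promoters kept. The run was found on either strand in 4 of these 8, and in 29.5% of 32851 promoters of the same length. The longer word GAGGAAGT was in 0 of the 8 and in 2.44% of all promoters. A match describes letters and not a bound site.

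Csf1r, the receptor for the growth factors CSF1 and IL-34, was the highest of the 9 genes, with 17.9 ± 2.10 CPM per kilobase of its longest coding transcript (SD, n = 20 mice). P2ry12, the ADP receptor that steers microglial processes, followed with 14.8 ± 2.58, and Cx3cr1, the receptor for the neuronal chemokine fractalkine, with 10.6 ± 1.13. Csf1r was above P2ry12 in 17 of 20 mice and P2ry12 above Cx3cr1 in 19 of 20. Tmem119, a membrane protein used to tell microglia from other macrophages, had 9.16 ± 1.46 CPM per kilobase and lay below Cx3cr1 in 18 of 20 mice. Siglech, a sialic acid binding lectin (7.37 ± 0.683), Fcrls, an Fc receptor-like scavenger receptor (7.25 ± 1.13), and Gpr34, a receptor for lysophosphatidylserine (6.92 ± 1.77), had no fixed order: Siglech was above Fcrls in 10 of 20 mice and Fcrls above Gpr34 in 12 of 20. Sall1 (4.84 ± 0.660) and P2ry13, the second ADP receptor (4.20 ± 0.532), were lowest. Divided by the mean length of a gene's transcripts instead, Tmem119 (15.9 CPM per kilobase) came before Cx3cr1 (12.5) and Fcrls (11.1) before Siglech (10.2), so these places depended on the length used.

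Within a group the genes varied from mouse to mouse about as much as other genes at like levels. The coefficient of variation of CPM within groups ran from 9.57% for Siglech to 18.5% for P2ry12, with a median of 13%, beside 13.1% for the 7692 genes at like levels. Across all 20 mice Gpr34 spanned 2.48-fold from the lowest to the highest mouse, the widest of the 9, and Cx3cr1 1.55-fold, the narrowest. The hAPOE4 male S176, which was high in oligodendrocyte genes, was the lowest of all mice for P2ry12, Cx3cr1, Siglech, Gpr34 and P2ry13, but the highest for Sall1. The summed level of the 9 genes was 261.5 ± 22.9 CPM with hAPOE3 and 272.8 ± 16 with hAPOE4 in males, and 268.6 ± 24.8 and 279.8 ± 15 in females (SD, n = 5 each). Neighbors in the order of these sums differed by less than the SD of either group.

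**Figure D1:**
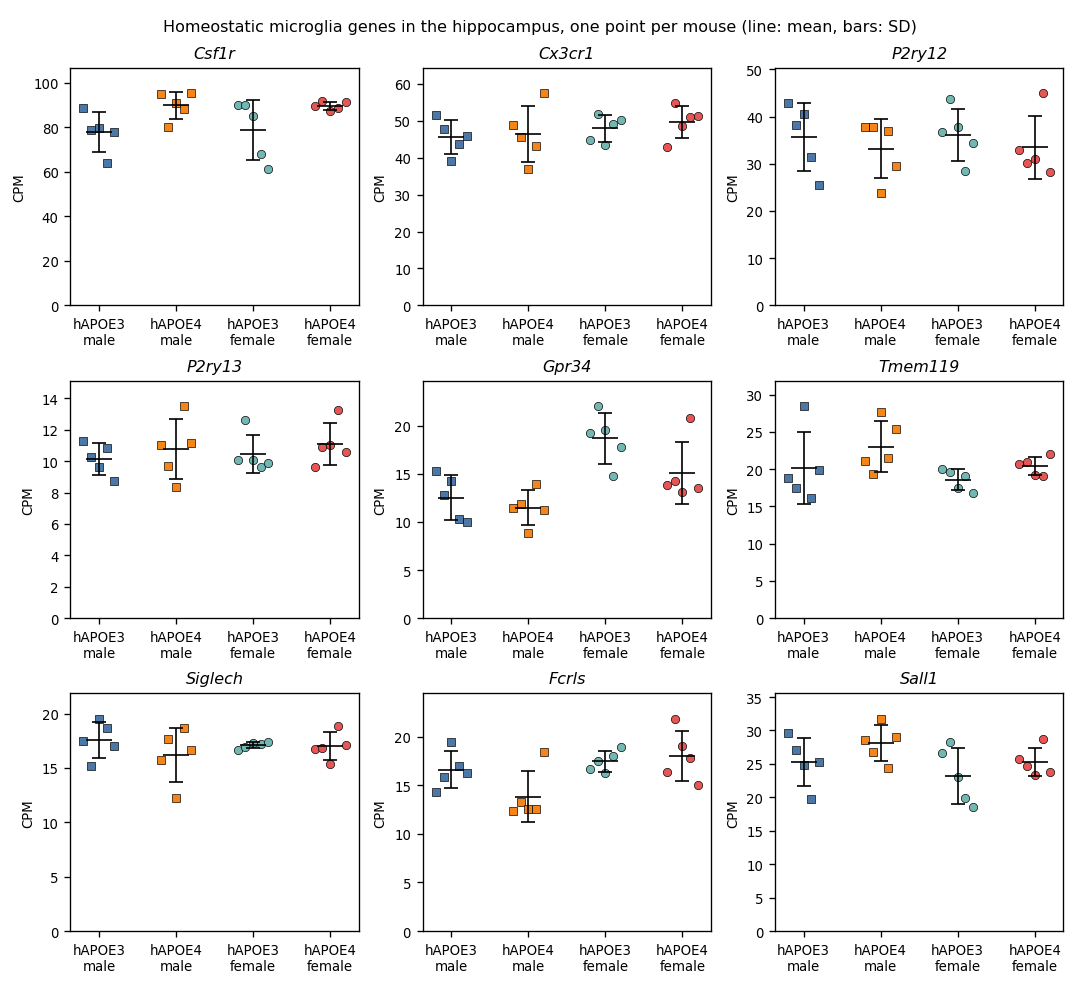
Level of each of the 9 genes in CPM (vertical axes from 0) in the 4 groups, 1 point per mouse, with the mean (line) and SD (bars) of 5 mice. The clearest offset is in Gpr34, where hAPOE3 females (14.8 to 22.0 CPM) lie above all hAPOE4 males (8.87 to 13.97 CPM).

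No homeostatic gene passed the adjusted threshold between the APOE genotypes. Averaged over the sexes, Csf1r was 0.20 higher in hAPOE4 mice on the log2 scale and Gpr34 0.21 lower, and the other 7 genes lay between -0.11 and 0.16. Between the males 0 of 9 genes passed an adjusted p of 0.05 in edgeR's quasi-likelihood test (0.621% of 21724 genes did), and 1 had an unadjusted p under 0.05 (9.06% of genes). Between the females 0 of 9 passed (0.667% of genes) and 0 had an unadjusted p under 0.05 (10.1% of genes). For the mean of the sexes 0 of 9 passed (2.45% of genes) and 1 had an unadjusted p under 0.05 (17.9% of genes). DESeq2 called 0 of 9 in each of these comparisons as well. The median log2 fold change of the 9 was 0.02 in males, 0.05 in females and 0.04 for the mean of the sexes, and the medians of all genes tested were within 0.00167 of 0. The 95% intervals of single genes for the mean of the sexes reached from -0.44 to 0.35, so changes beyond 0.737-fold and 1.28-fold lay outside all of them.

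Csf1r (chr18:61100598-61132149, plus strand) had the smallest adjusted p between the genotypes for the mean of the sexes. Its level was 64.1, 78.1, 78.8, 79.9 and 88.7 CPM in the hAPOE3 males and 80.0, 88.1, 91.1, 94.8 and 95.4 CPM in the hAPOE4 males. In females it was 61.2, 68.1, 85.3, 89.9 and 90.3 CPM with hAPOE3 and 87.3, 88.6, 89.5, 91.3 and 91.9 CPM with hAPOE4. The hAPOE4 mice were closely grouped near the top, most of all the females (89.7 ± 1.91 CPM against 78.9 ± 13.4, SD, n = 5 each), while the hAPOE3 mice spread downward and overlapped them. The log2 difference was 0.21 in males (SE 0.102) and 0.19 in females (SE 0.102), and 0.20 for their mean (95% interval 0.04 to 0.35, edgeR adjusted p = 0.158), where only the unadjusted p was under the threshold. The lowest hAPOE3 values came from the libraries with high oxidative phosphorylation genes: these 5 had 61.2 to 79.9 CPM of Csf1r and the other 5 hAPOE3 mice 78.8 to 90.3. Without these 5 libraries the difference for the mean of the sexes was 0.06 (edgeR adjusted p = 0.607). Exons of Csf1r share 873 of their 5774 bases with Hmgxb3 on the opposite strand, and since the strand setting of the library was not given in the sources used here, reads from there cannot be told apart. Hmgxb3 itself differed by 0.11 between the genotypes (edgeR adjusted p = 0.378).

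For the mean of the sexes 4 of the 9 genes were on the other side of 0: Gpr34 at -0.21, Fcrls and P2ry12 each at -0.11, and Siglech at -0.06. P2ry12 had 35.7 ± 7.14 CPM with hAPOE3 and 33.2 ± 6.27 with hAPOE4 in males, and 36.2 ± 5.51 and 33.5 ± 6.64 in females, a log2 difference of -0.11 for the mean of the sexes (edgeR adjusted p = 0.652). When single mice were left out this ran from -0.17 without S167 to -0.06 without S176. Gpr34 differed by -0.31 between the female groups (edgeR adjusted p = 0.522; -0.45 without S167 to -0.24 without S145) and by -0.12 between the male groups (-0.20 without S177 to -0.04 without S154). In the females 4 of 5 hAPOE4 mice, at 13.1 to 14.3 CPM, were below all 5 hAPOE3 mice, and S167 at 20.8 was above 4 of them. Without the 5 libraries with high oxidative phosphorylation genes, 5 hAPOE3 mice were left, the males S154 and S155 and the females S144, S145 and S146. For the mean of the sexes P2ry12 then stood at -0.27, Gpr34 at -0.36 and Tmem119 at 0.22, with edgeR adjusted p of 0.299, 0.159 and 0.230. In that fit 0 of 9 genes passed the adjusted threshold, beside 170 of 22847 genes. Next to P2ry12 lies the related receptor gene P2ry14, which is no member of the set and was looked up for its position. Its log2 difference was -0.43, lower in hAPOE4 mice (edgeR adjusted p = 0.0124), with 3.26 ± 0.196 against 2.36 ± 0.201 CPM in males and 3.8 ± 0.486 against 2.90 ± 0.456 in females.

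Gpr34 showed the widest difference between the sexes. In hAPOE3 mice it was 9.97, 10.3, 12.8, 14.2 and 15.3 CPM in males and 14.8, 17.8, 19.3, 19.6 and 22.0 CPM in females. In hAPOE4 mice it was 8.87, 11.2, 11.4, 11.9 and 13.97 CPM in males and 13.1, 13.5, 13.9, 14.3 and 20.8 CPM in females. Among hAPOE3 mice only the highest male and the lowest female overlapped, and among hAPOE4 mice the highest male reached into the range of the females. The order of the groups was hAPOE3 females, hAPOE4 females, hAPOE3 males and hAPOE4 males, and each group overlapped the next. The log2 difference of females from males was 0.58 with hAPOE3 (SE 0.154, edgeR adjusted p = 0.616) and 0.40 with hAPOE4 (SE 0.154, edgeR adjusted p = 0.615). For the mean of the genotypes it was 0.49 (SE 0.109, 95% interval 0.26 to 0.72), with an edgeR adjusted p of 0.0904, which missed the threshold. DESeq2 called it, with a log2 fold change of 0.49 and an adjusted p of 0.00641, as did edgeR with the choroid plexus score as a covariate (0.64, adjusted p = 0.0101). Other alternatives did not call it. EdgeR gave 0.48 without the 5 hAPOE3 libraries with high oxidative phosphorylation genes (adjusted p = 0.417). It gave 0.41 without the 2 mice with high oligodendrocyte genes (adjusted p = 0.146), and limma on the normalized counts 0.49 (adjusted p = 0.155). When single mice were left out, the edgeR difference was smallest without S167, the highest hAPOE4 female (0.42, adjusted p = 0.151), and the adjusted p was highest, 0.171, without S145, the highest hAPOE3 female. Cask, the gene around Gpr34 on the X chromosome, differed by 0.07 between the sexes (edgeR adjusted p = 0.746).

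Fcrls followed in hAPOE4 mice. Its level was 12.3, 12.6, 12.6, 13.3 and 18.4 CPM in hAPOE4 males and 15.1, 16.4, 17.8, 18.99 and 21.8 CPM in hAPOE4 females. The first 4 males were below every female, and the fifth, S178, was within their range. The hAPOE3 groups lay between, with 16.6 ± 1.91 CPM in males and 17.5 ± 1.08 in females. The log2 difference of the females was 0.38 with hAPOE4 (SE 0.120, edgeR adjusted p = 0.402) and 0.08 with hAPOE3 (edgeR adjusted p = 0.886). Without S178 the difference with hAPOE4 was 0.50 and passed the threshold (edgeR adjusted p = 0.0416), and the fits that left out 1 other mouse gave adjusted p up to 0.844. Between the males, Fcrls was 0.26 lower with hAPOE4 (edgeR adjusted p = 0.531, the only one of the 9 with an unadjusted p under 0.05). The value was -0.13 without the 5 hAPOE3 libraries with high oxidative phosphorylation genes and -0.42 without the 4 hAPOE4 males with oocyte genes. Of the 5 hAPOE4 males 4 carried oocyte genes, and the male without them, S174, had the lowest Fcrls of all mice, 12.3 CPM.

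Counted over the set, 0 of 9 genes passed the adjusted threshold of edgeR between the sexes in hAPOE3 mice (0.0414% of genes did) and 1 had an unadjusted p under 0.05 (5.22% of genes). In hAPOE4 mice 0 of 9 passed (0.437% of genes) and 2 had an unadjusted p under 0.05 (5.8% of genes). For the mean of the genotypes 0 of 9 passed (0.129% of genes) and 2 had an unadjusted p under 0.05 (10% of genes). DESeq2 called 0, 0 and 1 of the 9 in the same order, the 1 being Gpr34. For the interaction of sex and APOE 0 of 9 passed in edgeR (0.184% of genes), 0 had an unadjusted p under 0.05 (2.54% of genes), and DESeq2 called 0. The interaction was 0.30 for Fcrls (95% interval -0.05 to 0.66, edgeR adjusted p = 1, and 0.47 without the 4 males with oocyte genes) and -0.18 for Gpr34 (95% interval -0.64 to 0.27). The median log2 difference of females from males over the 9 genes was 0.02 with hAPOE3 and 0.05 with hAPOE4.

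**Figure D2:**
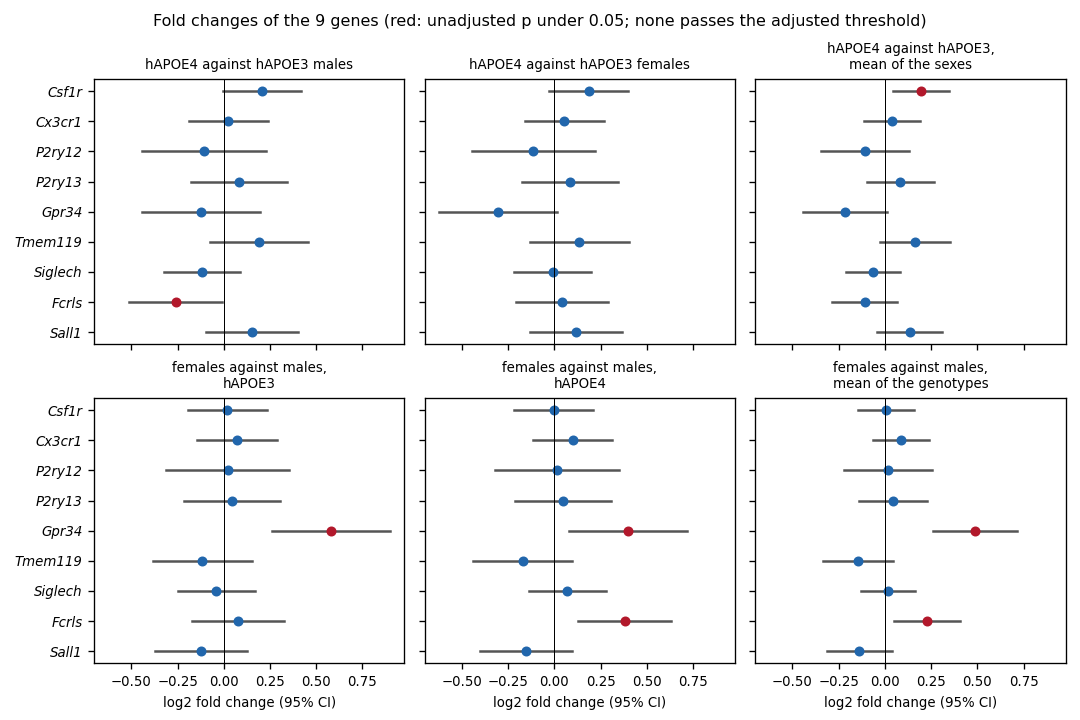
Log2 fold change of each gene (point) with its 95% interval (line) from edgeR in 6 comparisons, red where the unadjusted p is under 0.05. Between genotypes the points lie from -0.31 to 0.21. Between the sexes Gpr34 stands to the right of the other genes with hAPOE3, at 0.58, and lies beside Fcrls with hAPOE4, at 0.40 and 0.38.

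The group means of Cx3cr1, P2ry13 and Siglech lay closer together than the extreme mice of a group, except for Siglech in hAPOE3 females. Cx3cr1 had group means of 45.6 to 49.8 CPM, with SDs of 3.61 to 7.51, and its highest and lowest mice, S178 at 57.5 and S176 at 37.1 CPM, were both hAPOE4 males. P2ry13 had group means of 10.1 to 11.1 CPM with SDs of 0.996 to 1.91. Siglech had group means of 16.2 to 17.6 CPM with SDs of 0.293 to 2.47. Its 5 hAPOE3 females were the closest group of any gene, at 16.6 to 17.4 CPM. Exons of Cx3cr1 share 78 bases with the antisense gene Gm33858.

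Tmem119 and Sall1 were both higher in hAPOE4 than in hAPOE3 mice and lower in females than in males, without passing the test. Tmem119 had 20.2 ± 4.84 CPM with hAPOE3 and 23.0 ± 3.40 with hAPOE4 in males, and 18.6 ± 1.44 and 20.4 ± 1.21 in females (SD, n = 5 each). Its genotype difference for the mean of the sexes was 0.16 (edgeR adjusted p = 0.357). The upper end was set by the male mice S156 and S176, at 28.5 CPM with hAPOE3 and 27.6 CPM with hAPOE4. Sall1 had 25.3 ± 3.60, 28.1 ± 2.74, 23.3 ± 4.19 and 25.3 ± 2.10 CPM in the same order, with a genotype difference of 0.14 (edgeR adjusted p = 0.418). Without the 5 libraries with high oxidative phosphorylation genes the difference of Sall1 turned to -0.03.

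The 9 genes did not rise and fall together from mouse to mouse. Over the 36 pairs of genes the median Pearson correlation of log2 CPM across 20 mice was 0.135, with a range of -0.42 to 0.80, and 13 pairs were negative. These values describe whole libraries, in which genes share the dissection, the RNA and the group, so they are given without a test. P2ry12, Gpr34, P2ry13 and Siglech varied together, with Pearson correlations of 0.42 to 0.67 in their 6 pairs. Tmem119, Csf1r and Sall1 did so as well, at 0.51 to 0.80 in their 3 pairs. By rank (Spearman) the first set gave 0.15 (Siglech with P2ry13) to 0.58 (P2ry12 with Gpr34) and the second 0.38 to 0.65. S176 was the lowest of all mice for each gene of the first set. Between the sets the 12 Pearson correlations ran from -0.40 to 0.29, and the rank correlations from -0.46 to 0.35. Both sets were drawn after these correlations were seen. On the authors' normalized counts, P2ry12 with Siglech was 0.29 and Siglech with Gpr34 0.30, below the correlations of P2ry12 with Sall1 (0.44) and with Csf1r (0.43), so the place of P2ry12 between the sets depended on the table. With the group means taken out, the 6 pairs of the first set gave 0.49 to 0.92, the highest being P2ry12 with Gpr34, and the 3 pairs of the second 0.35 to 0.84. The transcripts of the first set hold 37.1% to 45.5% G and C and those of the second 51.6% to 59.1%. Over the 36 pairs the correlation fell as the gap in G and C content grew (Spearman rho -0.42, pairs sharing genes), and the part of base content in the pattern was not tested.

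**Figure D3:**
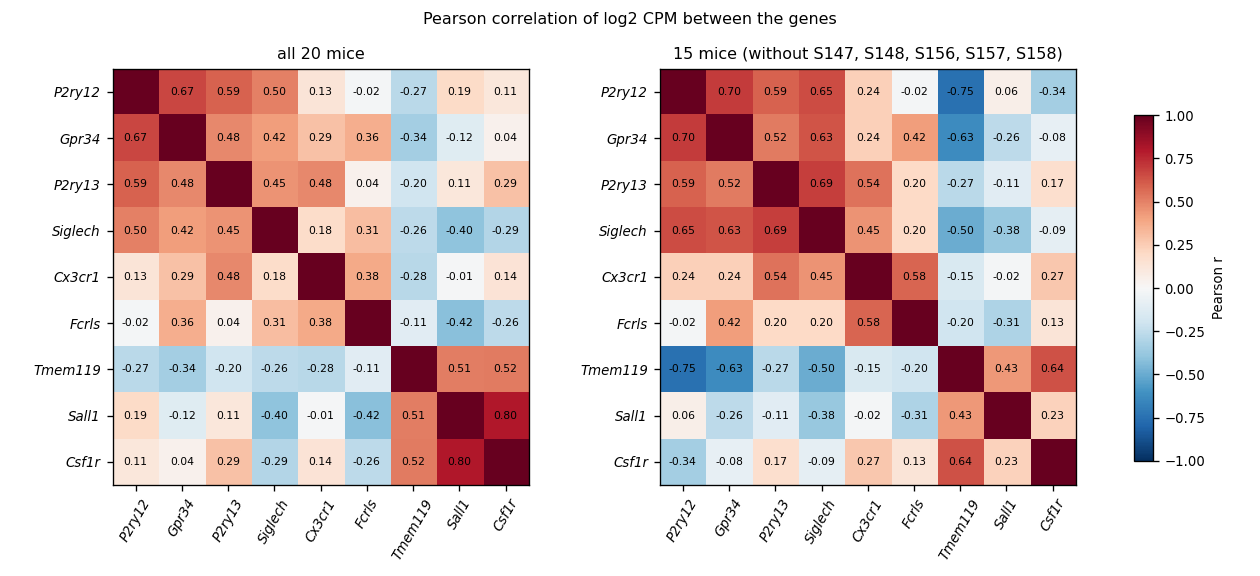
Pearson correlation of log2 CPM for each pair of the 9 genes, from -1 (blue) to 1 (red), across 20 mice (left) and across the 15 mice without the 5 libraries with high oxidative phosphorylation genes (right). P2ry12, Gpr34, P2ry13 and Siglech form a red block in both, while Csf1r with Sall1 goes from 0.80 to 0.23.

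Without the 5 hAPOE3 libraries with high oxidative phosphorylation genes, the block of P2ry12, Gpr34, P2ry13 and Siglech had Pearson correlations of 0.52 to 0.70 over 15 mice. These mice, S176 among them, are part of the 20 from which the block was drawn, so the values are no separate check of it. Rank correlations were not taken over the 15. The pair Csf1r and Sall1 fell from 0.80 to 0.23, while P2ry12 and Tmem119 went from -0.27 to -0.75. Csf1r correlated with the oxidative phosphorylation score at -0.73 over 20 mice and at 0.03 over the 15, and Sall1 at -0.60 and -0.08. Sall1 was 18.5 to 25.3 CPM in the 5 libraries and 23.0 to 29.6 in the other 5 hAPOE3 mice. Csf1r and Sall1 also correlated with the score of astrocyte genes, at 0.79 and 0.78 (-0.01 and 0.38 over the 15 mice). P2ry12 correlated with the score of neuron genes at 0.77, and at 0.70 over the 15 mice. All 5 of these libraries were hAPOE3, and why they stood apart was not tested.

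**Figure D4:**
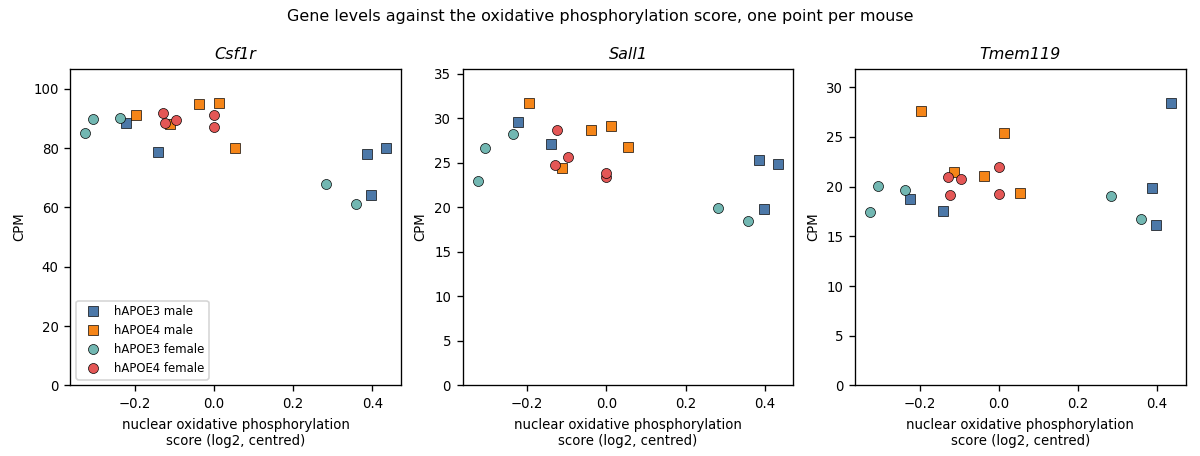
Level of Csf1r, Sall1 and Tmem119 in CPM against the score of 69 nuclear oxidative phosphorylation genes (log2, centered), 1 point per mouse, squares for males and circles for females. The 5 hAPOE3 mice at scores of 0.283 to 0.434 have 61.2 to 79.9 CPM of Csf1r, while Tmem119 shows no such offset.

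For P2ry12 the sign of the genotype difference depended on which deposited table was used. The authors' normalized counts divide each count by a factor that differs between genes and mice, and how these factors were made was not retraced here. Relative to the other genes of the mouse, the factor of P2ry12 was 0.09 ± 0.157 with hAPOE3 and -0.09 ± 0.0661 with hAPOE4 in males on the log2 scale, and 0.08 ± 0.127 and -0.09 ± 0.0633 in females (SD, n = 5 each). It was 0.0845 to 0.272 in the 5 hAPOE3 libraries with high oxidative phosphorylation genes and -0.165 to 0.0423 in the other 15 mice, without overlap. Over the sexes the difference of the factor between hAPOE4 and hAPOE3 was -0.17, further from 0 than in 94.1% of 17810 genes, whose median size was 0.0183. On the normalized counts P2ry12 was 1466 ± 416 with hAPOE3 and 1520 ± 326 with hAPOE4 in males, and 1481 ± 328 and 1548 ± 369 in females. The log2 difference was then 0.07 (limma adjusted p = 0.843), beside -0.11 from the counts, and neither passed. For the other 8 genes the factor moved the genotype difference by at most 0.05. With annotated transcripts in brackets, the factor spanned 0.00525 for P2ry13 (1), 0.00868 for Sall1 (1), 0.0218 for Fcrls (2) and 0.0468 for Gpr34 (2). It spanned 0.166 for Tmem119 (2), 0.0764 for Cx3cr1 (3), 0.436 for P2ry12 (5), 0.0127 for Csf1r (6) and 0.218 for Siglech (8). The part of transcript number in these spans was not tested.

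**Figure D5:**
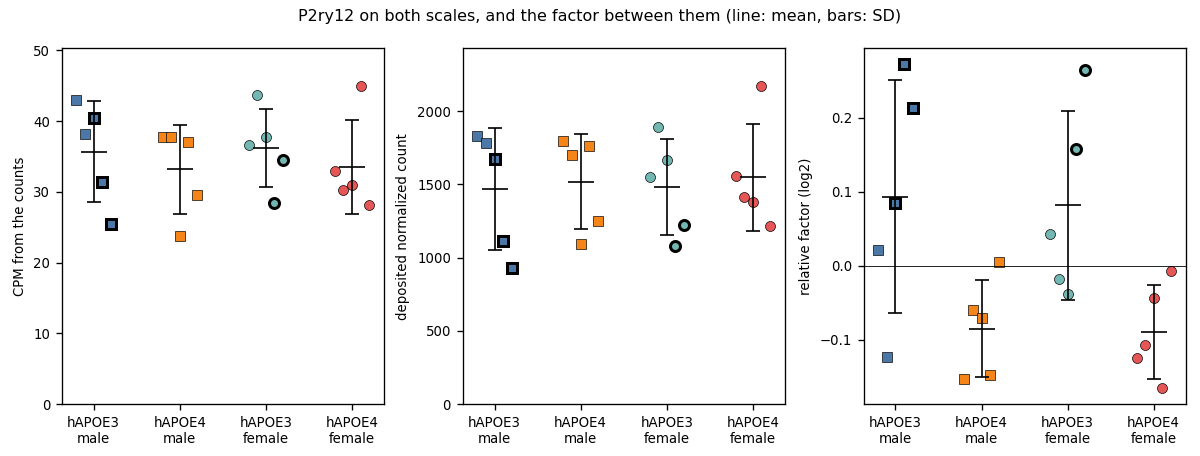
P2ry12 by group as CPM from the counts, as the authors' normalized count, and as the relative log2 factor between both tables, 1 point per mouse with mean and SD of 5. Thick outlines mark the 5 hAPOE3 libraries with high oxidative phosphorylation genes, which hold the 5 highest factors.

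The signals that act on these receptors were read from a list of 23 ligands, enzymes and factors, none of which passed the adjusted threshold of edgeR in any of the 7 comparisons. Il34, the ligand of CSF1R made by neurons, had 28.6 ± 2.19 CPM with hAPOE3 and 30.9 ± 5.04 with hAPOE4 in males, and 27.4 ± 3.91 and 31.6 ± 3.30 in females, a genotype difference of 0.16 (edgeR adjusted p = 0.299). Csf1, the second ligand, differed by 0.07 (edgeR adjusted p = 0.722) and Cx3cl1, the ligand of CX3CR1, by -0.02 (adjusted p = 0.933). Tgfb1, which maintains the homeostatic state, differed by -0.03 (edgeR adjusted p = 0.871). Its receptor gene Tgfbr2 had the lowest adjusted p of the list for the mean of the sexes, at 0.37 (edgeR adjusted p = 0.0608), with 17.1 ± 1.54 CPM with hAPOE3 and 20.8 ± 4.01 with hAPOE4 in males, and 18.8 ± 4.03 and 25.7 ± 3.61 in females. Tyrobp, the adaptor of several microglial receptors, had the lowest adjusted p of the list between the males, at -0.58 (edgeR adjusted p = 0.255), and was -0.41 for the mean of the sexes (adjusted p = 0.0929). For the mean of the sexes 2 of the 23 were higher and 1 lower at an unadjusted p under 0.05, beside 17.9% of all genes in either direction.

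Among 30 other microglial genes, 0 passed the adjusted threshold of edgeR in any comparison, and the median genotype difference was -0.04 for the mean of the sexes. Of 21 genes raised in disease-associated microglia, 1 passed: Clec7a, a receptor for fungal glucans, had a log2 difference of 1.28 between hAPOE4 females and males (edgeR adjusted p = 0.00811), and was higher in the females. Its levels were low, at 1.91 ± 0.539 against 0.784 ± 0.248 CPM. In hAPOE3 mice Clec7a was higher in females too, at 1.73 ± 0.424 against 0.918 ± 0.17 CPM. Between the sexes 0 of the 21 passed with hAPOE3. For the mean of the genotypes 1 passed (lowest edgeR adjusted p = 0.00426), and for the interaction 0. The disease-associated genes had a median sex difference of 0.22 in hAPOE4 mice, where the homeostatic genes had 0.05, and 7 of the 21 were higher in females at an unadjusted p under 0.05, beside 5.8% of all genes in either direction. In the same comparison 12 of 12 choroid plexus markers (median 1.82) and 12 of 12 border macrophage markers (median 0.74) were higher in females, and their part was not tested. Fcrls correlated with the score of the disease-associated genes at 0.61, the highest of the 9. With the group means taken out it correlated at 0.36, below Tmem119 at 0.41. Markers of border macrophages, which also express Csf1r and Cx3cr1, had 12 of 12 genes higher in hAPOE4 than in hAPOE3 females, 0 past the adjusted threshold and 6 at an unadjusted p under 0.05 (10.1% of all genes). Between the males 12 of 12 were higher in hAPOE4 mice as well, with a median of 0.22 beside 0.81 in females. Choroid plexus markers were higher in 12 of 12 genes between the same females (median 0.78), and among hAPOE4 females S168 had the lowest score of both lists. The summed level of the border macrophage markers was 33.8 to 93.5 CPM in hAPOE4 females and 33.2 to 69.7 in hAPOE3 females, and their part in the levels of Csf1r and Cx3cr1 was not tested.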

How the data were processed

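The samples were grouped by the genotype and sex in the labels. Per the methods, the authors assigned paired-end reads of polyA libraries to mouse cDNA by Salmon 0.91, and tximport gave 1 value per gene. The deposited estimated counts are whole numbers without normalization. The deposited normalized counts are a signal, for which the authors used DESeq2 and factors of each gene and mouse. Table columns matched the mice by name, and 0 were left out. Neither table holds fold changes of the authors.

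The test was edgeR 4.0.16 (R 4.3.3), with TMM scaling, filterByExpr (21724 of 33119 genes kept), and the quasi-likelihood functions glmQLFit and glmQLFTest, fitting a mean for each group of the 20 mice (7 comparisons, Benjamini-Hochberg adjustment over all genes, threshold 0.05). CPM values are TMM-normalized, and log2 values for scores and correlations used a prior count of 2. Alternatives used DESeq2 1.42.0, and limma 3.58.1 on log2 (normalized count + 1). The step was tested on simulated data. No library repeated another: over 190 pairs the lowest chi-square per degree of freedom was 9.16. The labels do not say that mice were of separate litters or cages. Precision was set by the spread between 5 mice per group.

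All 9 genes are named. From the lists of ligands and partners, other microglia and disease-associated microglia, the rule was to name genes past the threshold, and Il34, Csf1, Cx3cl1, Tgfb1 and Tyrobp. Tgfbr2 did not pass and is named for the lowest adjusted p of its list. From the lists of other cells not every gene past the threshold is named. The members and lists were chosen with earlier results of these data known. P2ry14, Cask, Hmgxb3, the oxidative phosphorylation genes and the factors of the normalized counts were added after values were seen. Positions are from the GENCODE annotation of GRCm38.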

Additional observations from a re-analysis of the deposited data

Results flagged for a closer look

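In 40 tests of the highest and lowest mouse in a group of 5 (the 9 genes and their sum in 4 groups), 4 values stood apart from the other 4 mice by Dixon's criterion, where chance gives about 1 in 20. S167 stood apart among hAPOE4 females for Gpr34, at 20.8 CPM against 13.1 to 14.3 in the others, and for P2ry12, at 44.9 CPM against 28.2 to 33.0, the latter with a gap of 0.711 of the range, just over the critical 0.71. S178 stood apart among hAPOE4 males for Fcrls, at 18.4 CPM against 12.3 to 13.3. S145 stood apart among hAPOE3 females for P2ry13, at 12.6 CPM against 9.65 to 10.1. S145 was also the highest of all mice for Gpr34, at 22.0 CPM. No interaction of sex and APOE passed the threshold for any of the 9 genes.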

How the results depend on the processing

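No paired analysis was possible because the labels give no replicate numbers shared between groups. The count of genes past the threshold stayed at 0 of 9 in all comparisons and alternatives except 3. It was 1 for females against males, mean of the genotypes, with DESeq2 and with the choroid plexus score as covariate (Gpr34), and between 0 and 1 for females against males in hAPOE4 when 1 mouse was left out (Fcrls, without S178). Signs turned on the deposited normalized counts for the genotype difference of P2ry12, to 0.0752 in males, 0.0638 in females and 0.0695 for the mean of the sexes. Without the 5 hAPOE3 mice with high oxidative phosphorylation genes, a set chosen after seeing the data, that genotype difference for the mean of the sexes turned to -0.00857 for Cx3cr1 and -0.0295 for Sall1, and the sex difference of Tmem119 in hAPOE3 to 0.079. Without the 4 hAPOE4 males with oocyte genes, also chosen then, which leaves 1 male assumed to vary like the others, P2ry12 turned to 0.0896 between the males. When single mice were left out, the sex difference of Tmem119 in hAPOE3 ran from -0.187 to 0.0383, the genotype difference of Cx3cr1 from -0.00393 to 0.0755 and that of Fcrls in females from -0.0358 to 0.101. None of these turned values passed the threshold under the alternative or in the main test. The causes were not tested. Over all genes tested, edgeR called 135 between the males, 0.667% of genes between the females and 532 genes for the mean of the sexes, and DESeq2 called 322, 339 and 1163. Between the sexes edgeR called 9 with hAPOE3, 95 with hAPOE4, 28 for the mean and 40 for the interaction, and DESeq2 25, 250, 215 and 97. Other counts moved by over 1.5 times as well. Between the males edgeR called 221 without the filter, 45 with only the groups compared, 31 without the 5 hAPOE3 mice and 5 without the 4 hAPOE4 males, and for the mean of the sexes 170 without the 5, 69 without the 4 and 313 without the 2 mice with high oligodendrocyte genes. Without the 5 it called 95 between the females. Between the sexes with hAPOE4 it called 189 without the filter, 32 with only the groups compared, over 1.5 times as many without the 5 and 6 without the 4, and limma 47. With hAPOE3 it called 15 with the choroid plexus covariate. For the mean of the genotypes it called 83 with that covariate, 15 without the 5, 15 without the 2 and 8 without the 4, and limma 9. For the interaction it called 0 without the 5, 0 without the 4 and 25 without the 2, and limma 16. When single mice were left out, edgeR called 99 to 288 genes between the males (highest without S174), 74 (without S165) to 257 (without S144) between the females and 283 (without S148) to 792 (without S144) for the mean of the sexes. Between the sexes it called 9 to 13 with hAPOE3 and 70 to 275 with hAPOE4, 14 (without S165) to over 5 times the 28 of all mice for the mean and 30 to 118 for the interaction, the 3 highest all without S174, the hAPOE4 male without oocyte genes. With 5 mice a group, the SE of a pairwise log2 difference was 0.0998 to 0.161.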

Other observations

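The 10 genes whose log2 CPM followed the mean score of the 9 genes most closely over 20 mice, of 16087 compared, were Mir421, Lpar4, Smc2, Slitrk2, Bhlhb9, Arsk, Zfp933, Mfap3l, Sorbs2 and Cd180, with Pearson correlations of 0.80 for Mir421 to 0.71 for Cd180. Cd180, a surface receptor of macrophages and B cells, was low, at 2.44 CPM. The score of the 9 genes itself spanned 0.407 on the log2 scale over the mice, beside 0.372 for the 30 other microglial genes, and both scores correlated at -0.02 over 20 mice and at 0.31 over the 15 mice without the 5 hAPOE3 libraries with high oxidative phosphorylation genes. The T cell gene Cd3d was lower in hAPOE4 than in hAPOE3 mice, with log2 differences of -2.22 in males (edgeR adjusted p = 0.000213) and -1.92 in females (adjusted p = 0.00107).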
